A study of Mus musculus with 11 samples.

Results

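Lhx2, Nr2e1, Emx1, Emx2 and Otx1, a set of transcription factors that pattern the telencephalon, were followed together with the transcript C030018K13Rik across astrocytes of 4 brain regions. These 6 genes, of 24421 listed in each sample, were chosen by name and on their normalized values in the brainstem against the other regions, so their brainstem values are given as a description with no test. Emx1 is an exception to that drop, since it was almost without reads in every region. C030018K13Rik is annotated as a lincRNA and is not a transcription factor. The forebrain comparisons were not used to choose the genes, and these are tested.

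The cells were astrocytes of 16-week-old mice on a C57BL6 background, of both sexes, that carry eGFP under Aldh1l1 regulatory sequence in a BAC transgene. eGFP+ cells were sorted from the olfactory bulb (OB, n = 3), the hippocampus (HC, n = 3), the cortex (CX, n = 2) and the brainstem (BS, n = 3), all untreated and all with the transgene. The labels do not say whether the samples of a region came from separate animals, so that the spread between them may be technical. Each value is the number of reads on a gene divided by the size factor of its sample, as deposited. Samples held between 2830746 and 14151670 reads, with a median of 5552215, and 1 read was worth a value of 0.367 to 2.10. The sorted gene Aldh1l1 lay between 542 and 1317 in the 11 samples, and all 8 astrocyte markers were detected in each. Markers of other cells were detected as well, and the levels of those that moved with a result are given beside it.

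Lhx2 is a LIM-homeodomain factor that works with LIM cofactors and sets cortical identity in the dorsal telencephalon. Nr2e1, also called Tlx, is an orphan nuclear receptor that recruits corepressors and keeps neural stem cells undifferentiated. Emx1, Emx2 and Otx1 are homeodomain factors, and Emx2 and Otx1 take part in dividing the developing forebrain into fields, whereas Emx1 is best known from the excitatory lineage of the cortex. The Irx, Pax and En genes mark positions farther back in the neural tube.

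All positions are those of GRCm38 in GENCODE. Lhx2 lies on chromosome 2 from 38339281 to 38369733 on the plus strand, and Nr2e1 on chromosome 10 from 42561963 to 42583632 on the minus strand. Emx1 lies on chromosome 6 from 85187438 to 85204462 and Emx2 on chromosome 19 from 59458372 to 59465357, both on the plus strand. Otx1 lies on chromosome 11 from 21994764 to 22002897 on the minus strand, and C030018K13Rik on chromosome 5 from 64477008 to 64483967 on the plus strand. No pair of these genes shares a chromosome.

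Promoter sequences of RefSeq, on GRCm38, were matched for 5 of the 6 genes, and the 250 bases before each start were searched on both strands. The search letters were TAATTA (the homeodomain core), AAGTCA (the core of the Nr2e1 binding site), TAATCC (the Otx core) and the NFI palindrome. Only C030018K13Rik held any of these, with TAATTA beginning 152 and 141 bases before its start. Its window is shown with these letters in capitals, beside that of Lhx2, which stands for the GC-rich windows of the other genes and held no match. The first lies at chr5:64476758-64477007 on the plus strand and the second, of the 5′ of 2 listed Lhx2 starts, at chr2:38339031-38339280 on the plus strand.
C030018K13Rik: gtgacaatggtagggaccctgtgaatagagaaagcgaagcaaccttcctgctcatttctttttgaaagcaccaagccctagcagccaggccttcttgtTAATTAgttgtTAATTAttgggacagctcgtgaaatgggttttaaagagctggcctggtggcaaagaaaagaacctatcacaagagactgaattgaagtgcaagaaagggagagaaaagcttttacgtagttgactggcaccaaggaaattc
Lhx2: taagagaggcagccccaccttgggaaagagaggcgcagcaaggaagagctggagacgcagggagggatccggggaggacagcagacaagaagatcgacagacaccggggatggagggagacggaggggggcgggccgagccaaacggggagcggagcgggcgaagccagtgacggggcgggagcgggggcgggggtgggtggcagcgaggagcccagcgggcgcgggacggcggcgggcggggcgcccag

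Of 32851 promoters of the same length, 4.84% held TAATTA at least once and 0.444% held it 2 or more times. AAGTCA was in 13.1%, TAATCC in 6.25% and the NFI palindrome in 0.0365% of them. The matches are a description of these letters and not of bound sites. The GC content of the C030018K13Rik window was 43.6%, under the median of 52.4% over all promoters, whereas the windows of the other genes held between 58% (Nr2e1) and 75.6% (Emx1). Its CpG ratio, observed over expected, was 0.26, against 0.373 as the median of all promoters and 0.739 to 0.895 in the other windows.

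Lhx2 was the most highly expressed of the genes in the forebrain. Its normalized values were 1060, 1253 and 1426 in the OB, 1261, 1528 and 1787 in the HC and 2222 and 2064 in the CX. The BS samples had values of 2.10, 8.01 and 2.10, which rest on 2, 4 and 1 reads. Every forebrain sample was thus far above every BS sample. The forebrain mean of 1575 was 433 times the pooled BS value, with a 95% Poisson interval of 210 to 1078. Intervals of this kind, and floors of 3 reads, cover counting error only. In sorted bulk RNA, fewer cells of a type and less RNA per cell cannot be told apart.

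Nr2e1 followed the same course at a lower level. It had values of 391, 395 and 505 in the OB, 540, 621 and 964 in the HC and 1060 and 886 in the CX. In the BS, 5 reads, no read and 3 reads gave values of 5.26, 0 and 6.31. The forebrain mean of 670 was 161 times the pooled BS value (81.9 to 373.6), and no forebrain sample overlapped with the BS.

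Emx2 differed within the forebrain as well as in the BS. Values in the OB were 41.3, 67.1 and 85.1, against 443, 334 and 550 in the HC and 492 and 524 in the CX. A single read, in BS replicate 2, was counted on Emx2 in all of the BS, and the other BS samples were at 0. The OB samples lay below every HC and CX sample and above every BS sample. With only 1 read the ratio of the forebrain mean to the BS, 611, has an interval of 110 to 24119.

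Otx1 had more reads in the BS than the other genes. The forebrain samples ranged from 91.2 in the OB to 246 in the CX, with 91.2, 151 and 149 in the OB, 123, 146 and 156 in the HC and 246 and 219 in the CX. In the BS, 7, 21 and 9 reads gave values of 7.36, 42.1 and 18.9. These lay below every forebrain sample. The forebrain mean of 160.2 was 8.33 times the pooled BS value (6.05 to 11.8), an interval that leaves out the spread between the BS samples.

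C030018K13Rik had no read in any BS sample. It was even across the forebrain, at 138, 155 and 152 in the OB, 128, 254 and 134 in the HC and 126 and 135 in the CX. The forebrain mean of 153 was at least 97.9-fold higher than the BS, taking the floor of 3 reads over the 3 BS samples, a value of 1.56. HC replicate 2 stood above the other 7 forebrain samples, and the SD in the HC was 71.1 against 9.01 in the OB.

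Emx1 was close to undetected. In the HC, 11, 3 and 0 reads gave values of 6.87, 2.74 and 0, and BS replicate 3 had 2 reads, a value of 4.21. All OB and CX samples were at 0, which allows a value of up to 0.742 over the OB and 2.07 over the CX. Holding 16 reads in all, Emx1 fell under the filter on low reads and was not tested, and no drop in the BS was detectable for it at this depth. The other 5 genes passed, through the forebrain samples in which they are high. In the Emx pair, astrocytes therefore had reads almost only on Emx2.

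**Figure D1:**
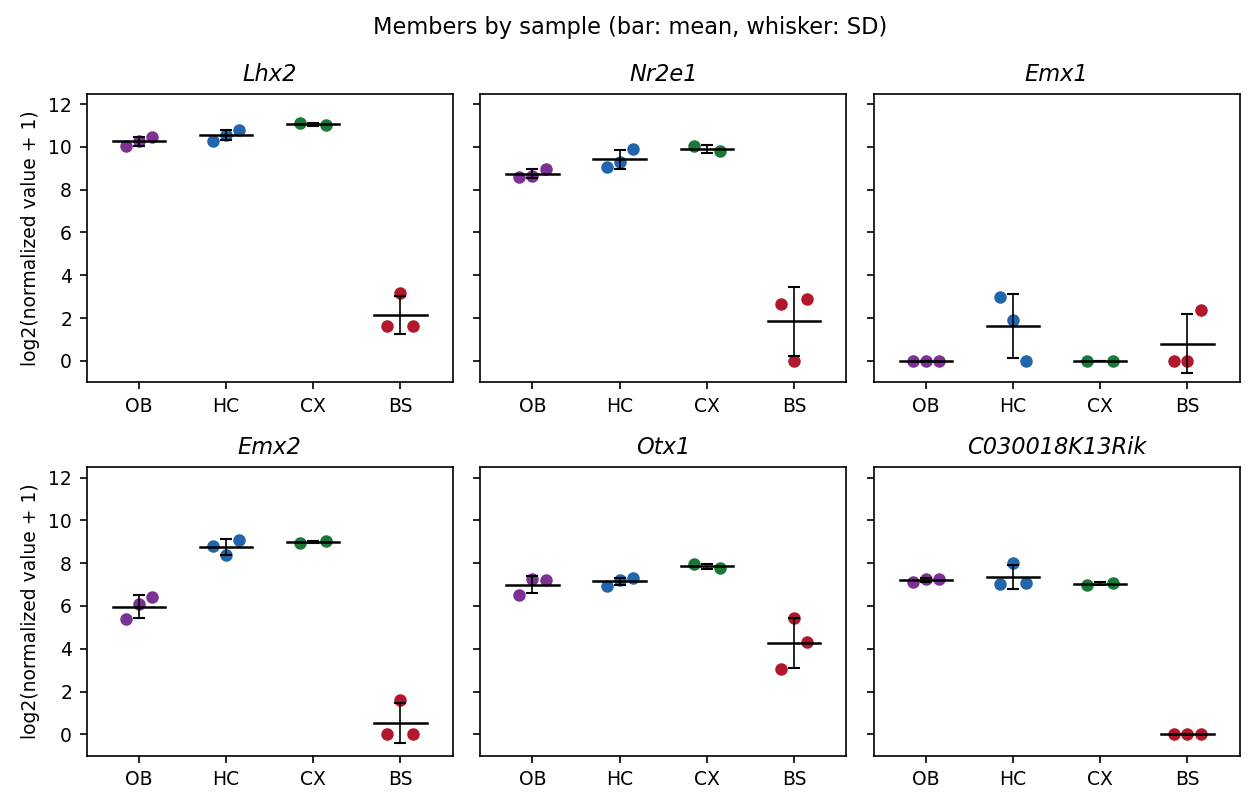
Normalized values of the 6 genes on a log2(value + 1) scale in the OB, HC, CX and BS, 1 point per sample, with the mean as a bar and the SD as a whisker. The BS points lie under all forebrain points for 5 genes, Emx2 is also low in the OB, and Emx1 is near 0 in every region.

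Every BS sample was below every forebrain sample for 5 of the 6 genes, which describes the choice of the genes. Among all 13875 genes tested, 4.19% showed this separation. Per kilobase of annotated exon, the forebrain mean was 359 for Lhx2, 181 for Nr2e1, 106 for Emx2, 100.2 for C030018K13Rik, 29.5 for Otx1 and 0.550 for Emx1. C030018K13Rik and Emx2 were thus close on this scale, and both lay below Nr2e1.

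Between the forebrain regions the genes took different courses, and Emx2 differed most. Regions were compared by limma on log2(value + 1), and a gene was called where the unadjusted p was below 0.01, the fold change exceeded 1.5 and 2 or more replicates of a region had values above 5. Emx2 was 6.86-fold lower in the OB than in the HC as a ratio of means (64.5 ± 22.0, SD, n = 3, against 442 ± 108, SD, n = 3). The log2 fold change was -2.79 ± 0.46 (SE), with an adjusted p of 0.001223 in limma. Against the CX (508 ± 22.5, SD, n = 2) it was -3.02 ± 0.51, with an adjusted p of 0.002622. Between the HC and the CX, Emx2 was not called, at -0.23 with a 95% interval of -1.32 to 0.86 and an adjusted p of 0.9143 in limma.

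Emx2 was the only one of the 5 genes tested that was called in these fits. It was 1 of 5 in OB versus HC, where 9.91% of all genes tested were called and 4.88% were called with the OB lower. It was also 1 of 5 in OB versus CX, where the shares were 8.01% and 3.47%. In HC versus CX, where limma called 4.68% of all genes tested, none of the 5 was called by limma, edgeR or DESeq2. None of the 5 had an unadjusted p under 0.05 in limma over the 11 samples. In limma fitted to the forebrain samples alone, both Lhx2 and Otx1 were under 0.05 unadjusted with the HC lower, and neither was called. Their adjusted p in that limma fit were 0.1872 and 0.218. For Emx2, the adjusted p under the alternatives ranged from 1.006e-16 to 0.02325 in OB versus HC and from 3.632e-15 to 0.03797 in OB versus CX.

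Lhx2 and Nr2e1 had their highest means in the CX, and whether they were called differed between fits. Lhx2 in the OB was lower than in the CX by a log2 fold change of -0.79 ± 0.36 (SE), with a 95% interval of -1.57 to -0.01 and an adjusted p of 0.297 in limma over all 11 samples. Nr2e1 was -1.18 ± 0.60, with an interval of -2.47 to 0.10 and an adjusted p of 0.3613. With the 8 forebrain samples alone, the same differences had an SE of 0.18 for Lhx2 and 0.23 for Nr2e1. Both were then called, with adjusted p of 0.01687 and 0.006528 in limma. In that fit 4 of the 5 genes were called lower in the OB than in the CX, with Emx2 and Otx1, against 4.4% of all genes tested (9.61% in either direction). Without BS replicate 2 the adjusted p was 0.02614 for Lhx2 and 0.01138 for Nr2e1. Over all 11 samples, BS included, DESeq2 gave 0.0108 and 0.001637, and edgeR with TMM factors gave 0.09073 and 0.03309. Both genes were also called by these at the unadjusted threshold. In limma over all 11 samples the spread is shared with BS values of 0 to 8.01, where a change of 1 read moves the log2 value strongly. The part of this in the difference between fits was not tested.

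Every CX sample was above every OB sample for 4 of the 5 genes tested, Lhx2, Nr2e1, Emx2 and Otx1, and so were 18.8% of all genes tested. The OB lay below the HC without overlap for Nr2e1 and Emx2, against 12.6% of all genes. HC and CX samples overlapped for Nr2e1, Emx2 and C030018K13Rik, whereas Lhx2 and Otx1 were higher in both CX samples than in any HC sample, as were 15.9% of all genes. The region means stood in the order CX, HC, OB for the same 4 genes, an order that 17.4% of all genes tested had.

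Nr2e1 in the OB against the HC was -0.68 ± 0.54 with an adjusted p of 0.578 in limma, and was called with the 8 forebrain samples alone (adjusted p = 0.05655 in limma). With Emx2 it made 2 of 5 called lower in the OB than in the HC in that fit, against 5.45% of all genes tested (11.4% in either direction). Otx1 in the OB against the CX was -0.87 ± 0.51 (adjusted p = 0.4508 in limma), and was called with the 8 forebrain samples alone (adjusted p = 0.08193). Neither had an adjusted p under 0.05 in that fit. For C030018K13Rik, the OB differed from the HC by -0.14 and from the CX by 0.18, with intervals of the 8 forebrain samples of -0.72 to 0.44 and -0.47 to 0.83. It was not called in any forebrain comparison or alternative.

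**Figure D2:**
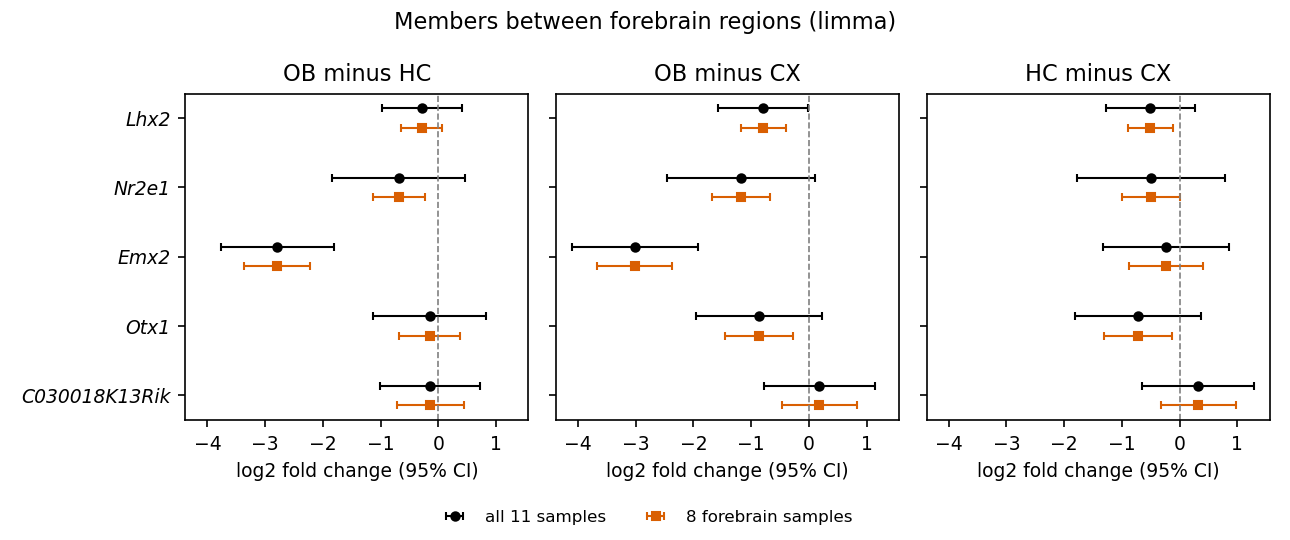
Log2 fold changes between forebrain regions for the 5 genes tested, with 95% confidence intervals from limma, over all 11 samples (black circles) and over the 8 forebrain samples (orange squares). The Emx2 intervals in OB minus HC and OB minus CX lie farthest below 0, the C030018K13Rik intervals span 0, and leaving out the BS narrows the intervals of Lhx2 and Nr2e1.

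Markers of other cells and of astrocytes themselves moved with these differences. The summed value of 5 excitatory neuron markers (Slc17a7, Slc17a6, Neurod2, Neurod6 and Camk2a) lay between 987 and 1548 in OB samples, between 3002 and 5995 in HC samples, between 4753 and 5832 in CX samples and between 84.1 and 206 in BS samples. Camk2a made up most of it in the forebrain, and 3 of the 5 markers were called lower in the OB than in the HC, as were 4.88% of all genes tested. The order of these sums is close to that of Emx2. Slc17a6 did not share it, with its highest mean, 58.3, in the BS. Within the HC, the sample with the lowest sum of excitatory markers, replicate 3 at 3002, had the highest Emx2, at 550. The same held in the OB, for replicate 3 at 987 and 85.1. In the CX it did not, since replicate 1 had both the lower sum, at 4753, and the lower Emx2, at 492. Between HC and CX, mean Camk2a was 4560 and 5076 and mean Slc17a7 was 154 and 180, whereas mean Neurod6 was 56.2 and 10.9.

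The summed value of the 8 astrocyte markers lay between 230526 and 275534 in OB samples, 270999 and 461723 in HC samples, 555938 and 630026 in CX samples and 93288 and 277780 in BS samples. The region means of the sum stood in the order of those of Lhx2 and Nr2e1. Slc1a2 made up most of the sum, and other markers had other orders. Gfap was lowest in the CX, and Aldh1l1 and Gja1 had higher means in the OB (959 and 4425) than in the HC (764 and 3893). Against the forebrain, the 8 markers had a median log2 fold change of -0.45 in the BS, and 1 of them, the glutamate transporter gene Slc1a3, was called lower, as were 5.05% of all genes tested. Slc1a3 had means of 4470 in the BS and 20962 to 32563 in the forebrain regions (-2.64 ± 0.34, adjusted p = 0.0004791 in limma). In OB versus CX the median of the 8 astrocyte markers was -0.33, and 1 was called in each direction. Of all genes tested, 4.54% were called higher and 3.47% lower in the OB there. The summed stem cell and neuroblast markers were 1396 to 1813 for OB samples, 788 to 1190 for HC samples, 2004 to 2021 for CX samples and 758 to 1847 for BS samples. Egfr made up most of this sum and was highest in the CX, at a mean of 1675. Not all of these markers shared its order, and Dcx had means of 349 (OB), 15.5 (HC), 44.5 (CX) and 19.7 (BS). The 6 oligodendrocyte markers summed to means of 12397 (OB), 31846 (HC), 19493 (CX) and 67150 (BS). Of these markers 5 were called lower in the OB than in the HC, the direction of Emx2, and 3 were called higher in the BS than in the forebrain. The shares of all genes tested were 4.88% and 3.98% at the unadjusted threshold. With an adjusted p under 0.05 in limma, 2 markers were called higher in the BS, as were 1.96% of all genes tested. At that rule 2 markers were also called lower in the OB than in the HC, for which no share of all genes is given here. The part of all these marker levels in the regional differences of the 6 genes was not tested.

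**Figure D3:**
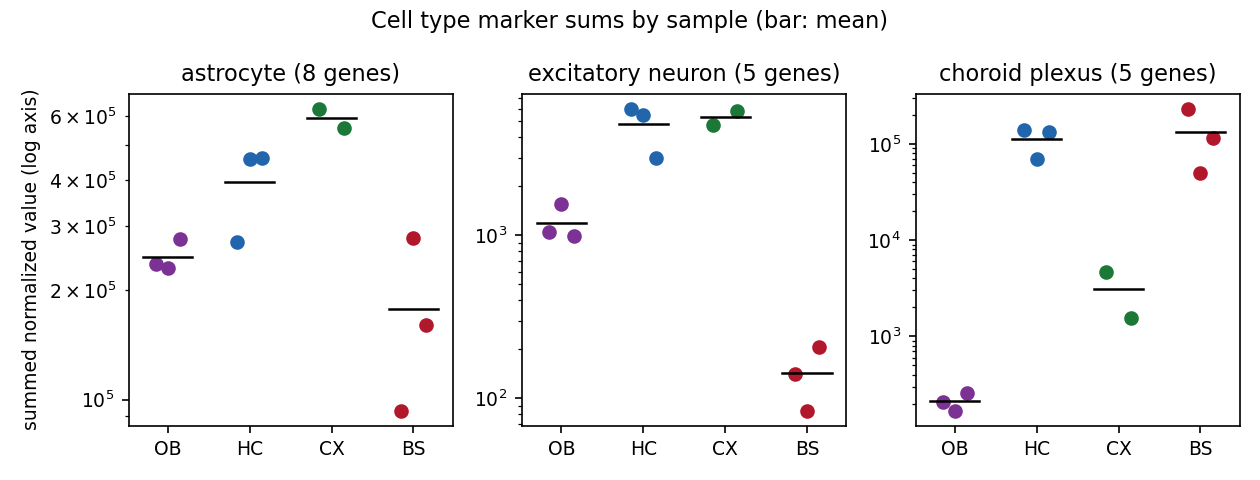
Summed normalized values, on a log axis, of the astrocyte, excitatory neuron and choroid plexus markers, 1 point per sample with the mean as a bar. Excitatory neuron sums are lowest in the BS and low in the OB, astrocyte sums are highest in the CX, and choroid plexus sums are high in the HC and BS.

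Genes next to Emx2 and the other genes were read beside them. Emx2os, an antisense transcript on the minus strand from 59425104 to 59458635, overlaps Emx2 by 264 bases. Its mean value was 17.5 ± 5.73 (SD, n = 3) in OB samples, 137 ± 23.2 (SD, n = 3) in HC samples and 205 ± 55.3 (SD, n = 2) in CX samples, and it had no read in the BS. It was lower in the OB than in the HC by a log2 fold change of -2.95 ± 0.50 (adjusted p = 0.00157 in limma) and than in the CX by -3.51 ± 0.56 (adjusted p = 0.001587). Its value was 27.2% ± 3.05 (SD, n = 3) of that of Emx2 in OB samples, 31.5% ± 3.55 (SD, n = 3) in HC samples and 40.5% ± 12.7 (SD, n = 2) in CX samples. The sources used here do not state whether counting used the strand, so reads in the overlap cannot be assigned to either gene.

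The neighbours of the other genes had reads in the BS. Dennd1a, 51891 bases from Lhx2, had region means from 328 to 450 in the forebrain and 202 ± 51.5 (SD, n = 3) in the BS. Ostm1, whose start lies 190 bases from that of Nr2e1 on the other strand, was at 212 ± 77.1 (SD, n = 3) in the BS against 261 to 350 in the forebrain. Ehbp1, 2931 bases from Otx1, was at 368 ± 31.0 (SD, n = 3) in the BS and 259 to 271 in the forebrain. Their BS levels were thus well above those of the gene beside them. Snx3 beside Nr2e1 was at 344 and Sfxn5 beside Emx1 at 3317 in the BS, and 2700089I24Rik beside Emx2 was at 0 in every sample. The annotated neighbours of C030018K13Rik were not analysed here.

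A list of 31 other telencephalic factors was set beside these genes, and 20 of them passed the filter. The 7 of these without a read in the BS passed through the forebrain, where they are high, so the counts and the median given next are a description. Against the forebrain regions pooled, 7 were called lower in the BS and 1 higher, where 5.05% and 3.98% of all genes tested were called. With an adjusted p under 0.05 in limma, 6 were lower (3.35% of all genes) and none was higher (1.96%), although Otx2 was higher at the unadjusted threshold. Fezf2, a zinc finger factor of the forebrain, had a forebrain mean of 176 and no read in the BS, at least 112.7-fold lower. Dmrta2, a DM-domain factor, had a forebrain mean of 38.1 and no read there either, at least 24.5-fold lower. Pax6 was 79.1 in the BS and 242 in the forebrain as means, a log2 fold change of -1.61 ± 0.27 (adjusted p = 0.003372 in limma), and Bcl11b was 3.06 against 52.3 (-4.01 ± 0.57). The median log2 fold change of the 20 factors was -2.17, also with the 7 that had no BS read at their bound, against 0.02 over all genes tested.

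Fezf2, like Emx2, was lower in the OB than in the HC. It had values of 26.1, 79.7 and 109.9 in the OB, 212, 219 and 367 in the HC and 202 and 189 in the CX. The OB was lower than the HC by a log2 fold change of -2.05 ± 0.51 (adjusted p = 0.02139 in limma), and the difference from the CX, -1.66 ± 0.57, was not called (adjusted p = 0.1302). Fezf2 was picked out here after its values were seen.

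**Figure D4:**
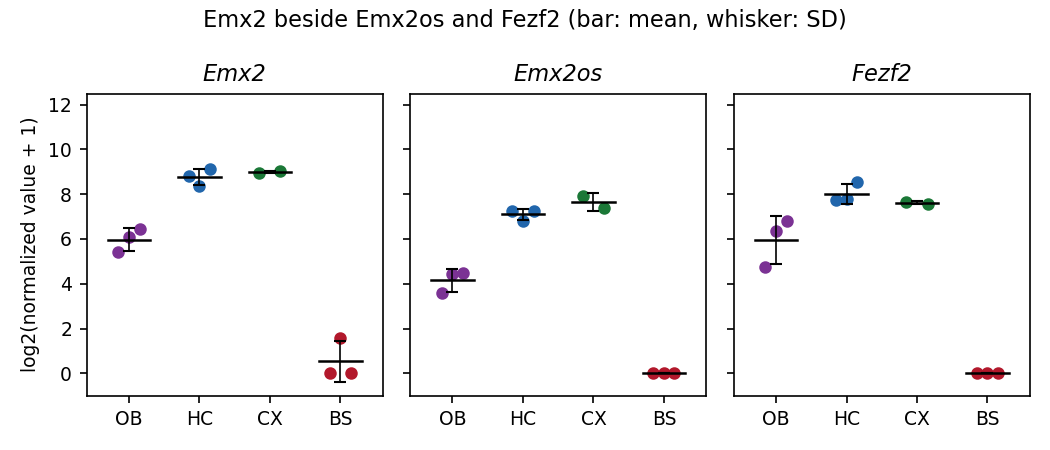
Emx2, its antisense transcript Emx2os and Fezf2 on a log2(value + 1) scale, 1 point per sample, with the mean as a bar and the SD as a whisker. All of them are lower in the OB than in the HC, and in the BS the only read among them is on Emx2.

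Other factors of the list marked single forebrain regions. Factors almost without reads in a region passed the filter through the regions where they are high. The counts given next, and the p-values of such factors, are therefore a description. Of the 20 tested, 5 were called higher and 6 lower in the OB than in the HC, and 4 and 4 in the OB against the CX. The shares of all genes tested were 5.03% and 4.88% in the first comparison and 4.54% and 3.47% in the second. In the HC, 4 were called higher than in the CX, as were 3% of all genes. Sp8, a zinc finger factor of olfactory bulb interneurons, was 242, 278 and 271 in the OB and held at most 3 reads in any other sample (adjusted p = 3.737e-05 against the HC in limma). Dlx2 and Dlx5, factors of the interneuron lineage, had means of 22.5 and 28.8 in the OB and of 0.305 and 0.833 in the HC. Eomes was 23.2 in the OB and without a read in the HC and CX. The inhibitory neuron markers Gad1, Gad2 and Slc32a1 summed to 634 to 897 in the OB and to 69.4 to 367 in the other samples. Their part in the levels of these OB genes was not tested.

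Dmrt3 and Six3 had no read in the OB and passed the filter through other regions, so their calls against the OB are a description. Dmrt3, a DM-domain factor of the medial pallium, had a mean of 52.3 in the HC, at least 70.5-fold above the OB. Six3 had means of 41.0 in the HC and 49.7 in the CX, at least 55.3-fold and 67.0-fold above the OB, and like Emx2 was called in both OB comparisons (adjusted p = 0.001632 and 0.003983 in limma) and not between HC and CX. Tbr1, a factor of deep cortical projection neurons, was 98.5 in the CX against 6.92 in the OB (adjusted p = 0.01507 in limma).

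Otx2, the paralogue of Otx1, had the reverse pattern in the BS. Its values were 2445, 609 and 1223 in the BS, 830, 448 and 671 in HC samples, 107 and 96.6 in CX samples and 40.2, 29.2 and 53.9 in the OB. It was called higher in the BS than in the forebrain, at 3.09 ± 0.95 with an adjusted p of 0.07375 in limma, and the call was lost in edgeR, in DESeq2 and without BS replicate 1 or BS replicate 3. The choroid plexus markers Ttr, Folr1, Kl, Clic6 and Aqp1 summed to 49535 to 233148 for BS samples, 69049 to 140120 for HC samples, 1564 to 4686 for CX samples and 169 to 255 for OB samples. Otx2 is itself expressed in choroid plexus epithelium, and the part of these cells in its level was not tested. Among the BS samples, the one with the highest choroid plexus sum had the highest Otx2 and the lowest Otx1.

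**Figure D5:**
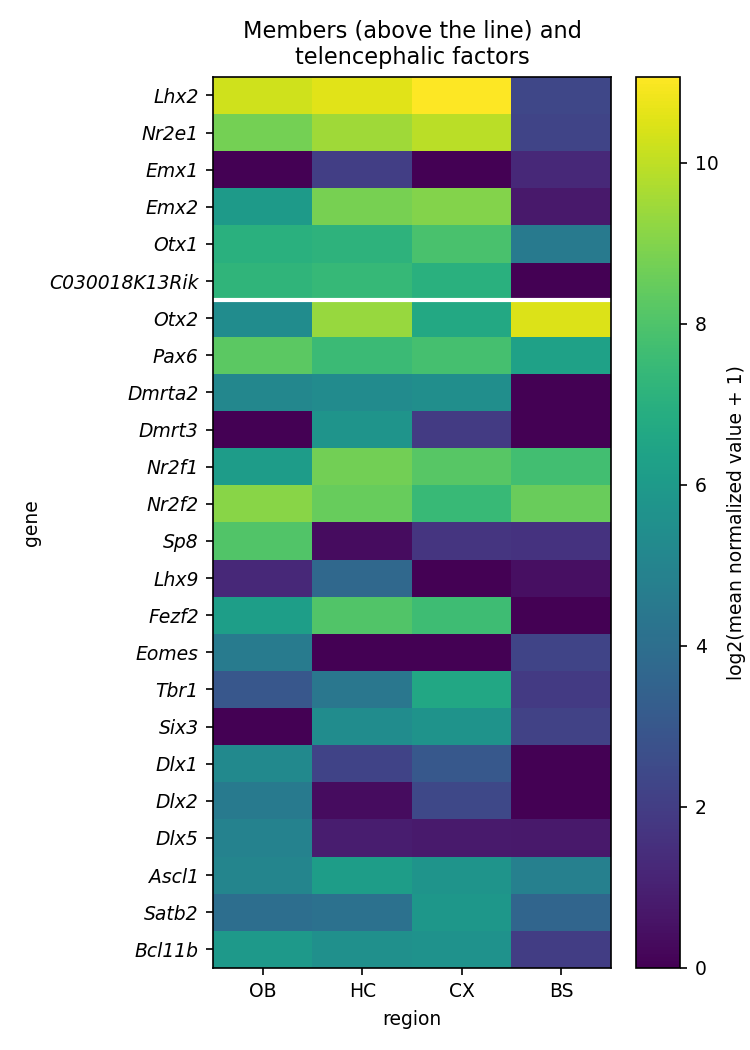
Region means on a log2(mean + 1) colour scale of the 6 genes (above the white line) and of 18 of the telencephalic factors tested. Fezf2 and Dmrta2 share the dark BS column with Lhx2, Nr2e1, Emx2 and C030018K13Rik, Otx2 is brightest in the BS, and Sp8 is bright only in the OB.

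Of 14 factors of the midbrain and hindbrain, 6 passed the filter and the other 8 had too few reads to be tested. The 6 passed through the BS, where they are high, so that their direction was set by the filter and their levels are given as a description. Irx5 had a mean of 64.7, Irx2 of 37.5, Pax3 of 33.5, Irx1 of 25.7 and Irx3 of 25.01 in the BS, with forebrain means of 1.96, 0.0459, 0, 0.293 and 0.418. En2, a homeodomain factor of the midbrain and anterior hindbrain, was 14.7, 50.1 and 23.2 in the BS samples. It stood at 0 to 8.75 in the forebrain, and no test is given for these 6 genes. BS replicate 2 had the highest En2 and also the highest Otx1 and Lhx2 of the BS samples, the latter on 4 reads, whereas it had no read on Nr2e1. Its astrocyte marker sum of 277780 and Aldh1l1 value of 1256 were the highest of the BS as well. The part of this in the Otx1 level was not tested.

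The partners of Lhx2 were mostly present in every region. All 10 LIM cofactors passed the filter, and Lmo3, Lmo1 and Lmo4 were called lower in the BS, against 5.05% of all genes tested. Lmo1 lost the call without BS replicate 1 or BS replicate 2, and Lmo4 without BS replicate 1. Lmo3 was 10.8 in the BS against 74.0 in the forebrain (adjusted p = 0.02012 in limma), and it was the only LIM cofactor with an adjusted p under 0.05 in this comparison. Lmo3, with 3, 1 and 13 reads in the BS samples, and Lmo1 passed the filter through the forebrain, so their BS calls are a description. Lmo1, a LIM-only protein, was higher in the OB, at 226, than in the HC, at 23.6 (3.39 ± 0.62, adjusted p = 0.00277 in limma), opposite in direction to Emx2. Of 11 LIM-homeodomain relatives only Lhx9 and Lmx1a passed the filter. Lhx9 reached 12.3 in the HC as a mean, and Lmx1a 106 in the BS and 30.3 in the HC, where the choroid plexus sums were also high. The part of these cells in its level was not tested.

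Of the 9 corepressors of Nr2e1, 0 were called between forebrain regions by limma, edgeR or DESeq2, and only Hdac1 in OB versus HC had an unadjusted p under 0.05 in them. Among all genes tested, limma called 9.91% in OB versus HC, 8.01% in OB versus CX and 4.68% in HC versus CX. With so few corepressors, a count of 0 is near these shares. Bcl11a was lower in the BS, at 8.98 against 59.6 in the forebrain (-2.47 ± 0.43, adjusted p = 0.004046 in limma). It had 8, 4 and 5 reads in the BS samples and passed the filter through the forebrain, so this p-value is a description. Among 8 genes described as targets of Nr2e1, Wnt7a had means of 448 (OB), 101 (HC) and 205 (CX), and the OB was called higher than the HC (2.17 ± 0.28, adjusted p = 0.0001775 in limma). Gfap was lower in the CX, at 1099, than in the OB, at 3506, and the HC, at 3673 (adjusted p = 0.0004064 and 0.0008164 in limma). In the BS, where Nr2e1 had 8 reads in all, 1 of the 8 targets was called lower, as were 5.05% of all genes tested. The stem cell factor Sox2 was that target (-0.93 ± 0.28 against the forebrain, adjusted p = 0.0733 in limma), and it is named here after its values were seen. Gfap was at 1455 and Wnt7a at 169 in the BS, neither of them called.

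Across the 8 forebrain samples, which share library and regional differences, Lhx2 varied most closely with Nr2e1 (Pearson r = 0.946) and Otx1 (r = 0.933), and Emx2 with Nr2e1 (r = 0.865). C030018K13Rik did not follow the others, with r from -0.219 to -0.0827. Over all 11 samples its r with them was between 0.902 and 0.988, which the low BS values set. These coefficients are descriptions of log2(value + 1) with no test.

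The genes most like each one within the forebrain were found over the same 8 samples. For Lhx2 these were Sirpa (r = 0.977) and Nudt3 (r = 0.9747), and Nr2e1 was closely followed by Abca5 (r = 0.987). Emx2 was followed most closely by Emx2os (r = 0.988) and by Ugt1a6a (r = 0.984), which shares exons with other Ugt1a genes. For Otx1 they were Vamp4 (r = 0.9902) and Wnt7b (r = 0.972), and for C030018K13Rik Rit1 (r = 0.971) and Mex3d (r = 0.948). The partners outside the Emx2 locus did not share the BS values. In the BS, Sirpa was at 778 ± 371 (SD, n = 3) and Wnt7b at 174 ± 121.

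Over all 11 samples, the genes with the highest mean r to the 5 genes tested included Dab1 (r = 0.967), AA387883 (r = 0.959), Dmrta2 (r = 0.959) and Gnao1 (r = 0.957). This ranking favours any gene that is low in the BS, the values on which the genes were chosen. By rank, the mean Spearman rho of these 4 ran from 0.761 (Dmrta2) to 0.846 (Gnao1). Dab1, the adaptor of Reelin signalling, had region means from 1092 to 1448 in the forebrain and 108 ± 19.0 (SD, n = 3) in the BS. Gnao1, a G protein subunit, had region means from 6414 to 12150 in the forebrain and 1177 ± 278 (SD, n = 3) for BS samples. AA387883 had means of 17.2 (OB), 44.8 (HC) and 59.4 (CX) and, like Dmrta2, no read in the BS.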

How the data were processed

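RNA from sorted cells of 11 samples was made into rRNA-depleted libraries and sequenced in pairs. The authors mapped reads with STAR 2.5.0a to mm10, counted them on UCSC transcripts and normalized them with DESeq2 1.20.0. The deposited signal is counts divided by 1 size factor per sample. All non-zero values were whole multiples of 1 step (tolerance 0.01), so reads were recovered (2830746 to 14151670 per sample).

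Regions were compared with limma 3.58.1 (trend) in R 4.3.3 on log2(value + 1), two-sided, with a mean for each region, or with the BS against the forebrain samples pooled. Of 24421 entries, 13875 passed filterByExpr of edgeR 4.0.16. Adjusted p-values are those of Benjamini and Hochberg over these. Fold changes on this scale understate changes of low genes. The pipeline was tested on simulated data. Alternatives were edgeR, DESeq2 1.42.0, another pseudocount, no filter, forebrain samples only, a replicate block and left-out samples. Named are the 6 genes, their neighbours, the most correlated genes, and list genes that were called. The members and lists were chosen with earlier results of these data known. Proteins were not analysed here, and a few genes that these rules name are not reported here.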

Additional observations from a re-analysis of the deposited data

How the results depend on the processing

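For the 5 genes tested, 116 of 135 values from the alternatives kept direction and side of the threshold, and 11 moved to the called side, all among Lhx2, Nr2e1 and Otx1 in the OB comparisons; the other 8 are BS values with no test that moved. Emx2 stayed called and lower in the OB in each fit, between -3.02 and -2.50 against the HC and between -3.25 and -2.73 against the CX with samples left out. With single samples left out, the difference between OB and HC ranged from -0.27 to 0.086 for Otx1 (positive without OB replicate 1) and from -0.31 to 0.18 for C030018K13Rik (positive without HC replicate 2), neither called. List genes lost a call in 25 of 297 alternatives and in 36 of 477 fits with a sample left out.

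Counts of called genes were 1375 in OB versus HC, 1111 in OB versus CX, 650 in HC versus CX and 1253 in BS versus the forebrain. With an adjusted p under 0.05 they were 677, 170 and 737 in the last 3 of these, and with that rule (chosen after seeing the data) edgeR gave 566, 125 and 572 with TMM and 585, 115 and 591 with RLE factors, and DESeq2 415 in HC versus CX; the cause was not tested. With a sample left out they ranged from 1068 to 1544, 679 to 1267, 372 to 821 and 802 to 1500. CX replicate 1 gave 679 and 372, HC replicate 1 429 in HC versus CX, and BS replicate 1 802. Same-numbered samples of different regions deviated together with r from -0.16 to 0.25, and other-numbered samples with r from -0.22 to 0.18. With so few samples in a region, a pairing by number could be neither shown nor excluded. With a replicate block 1420 genes were called in OB versus HC and no call of the 5 genes changed, while Lhx9 and Otx2 each lost 1. No other scaling moved the median of all genes by over 0.1. The 7, 8 and 1 reads behind Lhx2, Nr2e1 and Emx2 in the BS limit what can be said of their levels there.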
